A study of Rattus norvegicus with 6 samples.

Results

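The 6 genes described here, Arntl, Clock, Per1, Per2, Nr1d1 and Dbp, belong to the circadian clock. They were chosen by name, as 6 of the 32402 gene identifiers counted, and all 6 were among the 16344 genes with enough counts to be tested. Their transcripts were counted by RNA sequencing of the hypothalamic paraventricular nucleus, a centre for the control of water balance, stress hormones and autonomic output, in male Holtzman rats. In the furosemide group, sodium was removed with 1 acute injection of furosemide, a loop diuretic, at 10 mg/kg, and for the next 24 h the rats ate a low sodium diet and drank distilled water. The other group is labelled control, without a statement of what was injected or fed. Each group had 9 rats, pooled by 3 into 3 libraries, so a value is an average over the tissue of 3 rats. The age of the rats and the hour of the day at dissection are not given in the labels.

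The molecular clock is a loop of transcription and feedback that runs in nearly every cell. The proteins CLOCK and ARNTL (also called BMAL1) bind E-boxes in DNA and switch on Per1, Per2, Nr1d1 and Dbp. The PER proteins, with their CRY partners, return to block CLOCK and ARNTL. NR1D1 (REV-ERB alpha) represses Arntl through ROR response elements, and DBP carries the rhythm to further genes through D-boxes. Transcripts of Dbp, Nr1d1, Arntl and the Per genes vary with the time of day in many tissues, and Per1 is also known to respond quickly to cyclic AMP signals and to glucocorticoids. The suprachiasmatic nucleus, which sets the phase of the body's clocks, lies near the paraventricular nucleus in the hypothalamus. Markers of either nucleus could not be checked, because the count table gives genes by Ensembl identifier alone and no table used here pairs those identifiers with symbols.

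The letters that the clock factors are known to read were looked for in the reference promoters, to show how the 6 genes are set up. The RefSeq table (build GRCr8) held 8 windows of 300 bases for the 6 genes, each running from 250 bases before an annotated transcript start into the transcript. Clock and Nr1d1 each had an outer window and another further inside the gene. Arntl, Per2 and Dbp each had 1 window, whose place among the starts of the gene is not shown here. The window of Per1 lies at an inner start of the gene. Matches were exact and were searched on both strands. The sequences below are shown because they hold a match, and are read 5′ to 3′ along the gene with the matching letters in capitals.
Per2, D-box (chr9:99497167-99497196, minus strand): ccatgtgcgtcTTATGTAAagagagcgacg
Per2, E-box variant (chr9:99497038-99497067, minus strand): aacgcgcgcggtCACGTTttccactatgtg
Arntl, ROR response element core (chr1:176766301-176766330, plus strand): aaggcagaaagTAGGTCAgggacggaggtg
Nr1d1, outer start, E-box variant read on the opposite strand (chr10:84231969-84231998, minus strand): cgcatagagctcAACGTGcccgctgctgga
Nr1d1, inner start, E-box (chr10:84229628-84229657, minus strand): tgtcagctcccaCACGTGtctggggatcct

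The E-box CACGTG lay in 1 of the 8 windows, that of the inner Nr1d1 start, and in 6.42% of all 33469 promoter windows in the table. Its variant CACGTT lay in 2 of the 8, Per2 and the outer start of Nr1d1, and in 4.83% of all windows. The D-box TTATGTAA was in the Per2 window alone among the 8 and in 0.893% of all. The ROR response element core TAGGTCA was in the Arntl window and in 2.63% of all, and the form TGGGTCA in 0 of the 8 and 4.09% of all. The cyclic AMP response element TGACGTCA was in 0 of the 8 and 1.83% of all. No searched motif matches at the same bases as another in these windows. The windows of Dbp, Clock and Per1 held no match, which says only that these letters are not in these windows. The 250 bases before the start of Dbp, the gene with the largest difference between the groups below, are shown with those before the outer start of Nr1d1, the gene next to it in rank, whose match is in capitals.
Dbp (chr1:105312006-105312255, plus strand): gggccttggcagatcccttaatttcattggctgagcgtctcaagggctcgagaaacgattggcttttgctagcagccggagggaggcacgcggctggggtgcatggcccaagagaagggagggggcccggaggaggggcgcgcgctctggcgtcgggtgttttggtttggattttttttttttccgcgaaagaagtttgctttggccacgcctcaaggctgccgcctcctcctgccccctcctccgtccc
Nr1d1 (chr10:84231813-84232062, minus strand): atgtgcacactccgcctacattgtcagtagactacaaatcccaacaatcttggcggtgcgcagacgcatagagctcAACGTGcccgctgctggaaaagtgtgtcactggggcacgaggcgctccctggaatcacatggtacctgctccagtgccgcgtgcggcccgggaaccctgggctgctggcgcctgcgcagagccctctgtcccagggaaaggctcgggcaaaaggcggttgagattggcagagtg

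The 6 libraries held 20911950 to 22495415 counts, with every furosemide total above every control total. Levels are given as CPM, in which the reads of a gene are divided by the size of its library after TMM scaling, and the scaling factors lay between 0.994 and 1.01. Between 615 and 2264 reads stood behind each value of the 6 genes, so counting error alone gave a standard deviation of 0.03 to 0.05 on the log2 scale. CPM does not correct for transcript length, so levels are compared between libraries and not between genes. In pooled tissue, a lower share of cells that express a gene and less RNA per cell cannot be told apart. The labels do not say whether the 3 pools of a group were dissected or prepared separately in time, so the p-values measure the spread between these pools. The test draws the spread of each gene towards that of other genes, so a p does not rest on the gene's own spread alone. Across all 16344 genes, the edgeR quasi-likelihood test called 0 genes (0%) at an adjusted p under 0.05, and 1322 genes (8.09%) had an unadjusted p under 0.05.

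None of the 6 clock genes passed the adjusted threshold in that test. Dbp and Nr1d1 stood among the genes with the smallest p of the whole table, with estimated fold changes over control of 1.30 and 1.18. The estimate for Per1 was 1.15, and those for Per2, Arntl and Clock were 0.924, 0.963 and 0.968. Of the 6 genes, 4 had an unadjusted p under 0.05, against 8.09% of all genes tested. The genes were chosen with earlier results of these data known, so this share and those below are a description. With furosemide higher these were Dbp, Nr1d1 and Per1, against 3.82% of all genes, and with furosemide lower Per2, against 4.27%. The median absolute log2 fold change of the 6 genes was 0.16, and that of all genes tested was 0.06. The median signed log2 fold change was 0.08 for the 6 genes and 0.00 for all genes. The 95% interval of the fold change lay within 1.5-fold in either direction for all 6, as it did for 85.1% of the genes tested.

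**Figure D1:**
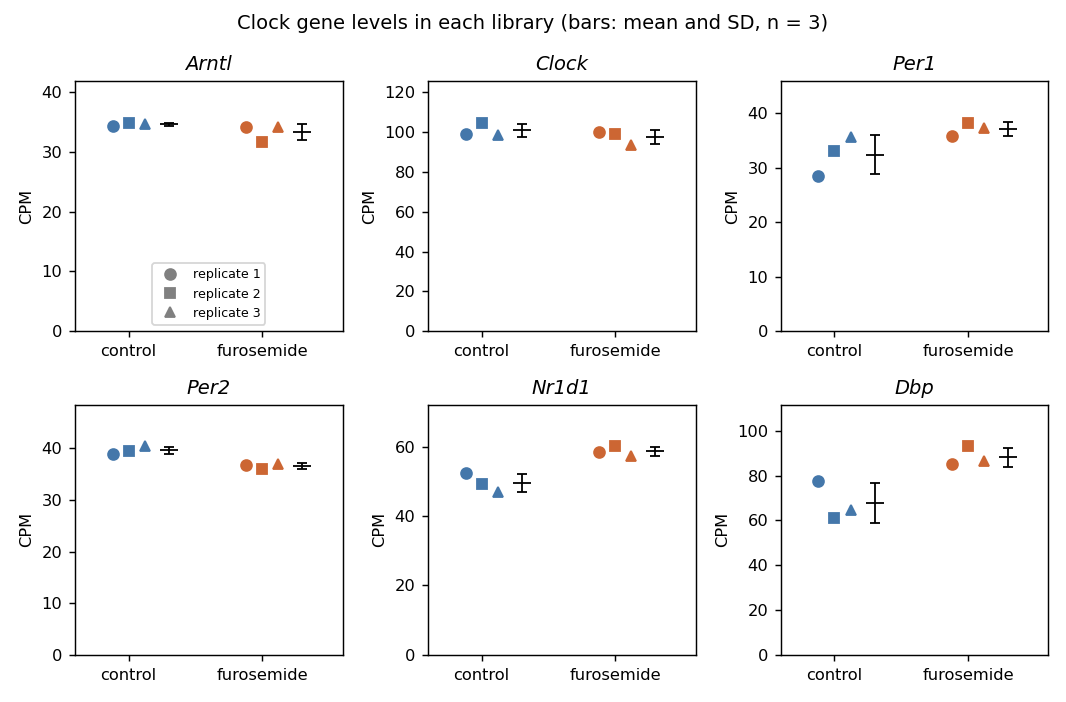
CPM (vertical axis, from 0) of each clock gene in the 3 control and 3 furosemide libraries, with a marker for each replicate number and a bar for the mean and SD. The furosemide points of Dbp (85.2 to 93.0 CPM) and Nr1d1 (57.3 to 60.0 CPM) all lie above the control points, while those of Clock overlap them.

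Clock (ENSRNOG00000002175), the partner of ARNTL in the activating complex, was at 99.2, 105 and 98.7 CPM in control replicates 1, 2 and 3. After furosemide it was at 99.9, 99.3 and 93.7 CPM. The groups overlapped, with control 2 the highest and furosemide 3 the lowest of the 6. The control mean was 101 ± 3.36 CPM and the furosemide mean 97.6 ± 3.42 CPM (SD, n = 3 each). The estimated log2 fold change was -0.05, with standard error 0.04 and a 95% interval of -0.13 to 0.04 (edgeR unadjusted p = 0.262, adjusted p = 0.814).

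Arntl (ENSRNOG00000014448), the gene that NR1D1 represses, had 34.3, 34.9 and 34.6 CPM in the control pools. The furosemide pools had 34.1, 31.7 and 34.1 CPM. All 3 furosemide values were below all 3 control values, but the gap between the groups was 0.197 CPM, against a counting error of 1.25 CPM for one value. Furosemide 2 alone stood apart, below the other 5 libraries. The control mean was 34.6 ± 0.301 CPM and the furosemide mean 33.3 ± 1.36 CPM (SD, n = 3 each). The estimated log2 fold change was -0.06, with standard error 0.05 and a 95% interval of -0.17 to 0.06 (edgeR unadjusted p = 0.31, adjusted p = 0.839). For Arntl the residual SD within groups was 0.04 on the log2 scale, below the size of its difference. It was also below the counting SD of 0.05 for Arntl, which was about the size of that difference. For Clock the residual SD was 0.05, about the size of its difference. The intervals of these 2 activators include 0 and allow a fold change of no less than 0.891 for Arntl and 0.912 for Clock.

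Per1 (ENSRNOG00000007387), a feedback inhibitor, was at 28.5, 33.1 and 35.6 CPM in controls. After furosemide it was at 35.8, 38.3 and 37.3 CPM. The groups did not overlap, with furosemide above control, but the gap was 0.264 CPM against a counting error of 1.26 CPM. Control 1 stood below the other controls, and the control SD of 3.58 CPM was larger than the furosemide SD of 1.23 CPM. The means were 32.4 and 37.1 CPM (n = 3 each). This gave a log2 fold change of 0.20, standard error 0.07 and a 95% interval of 0.05 to 0.35 (edgeR unadjusted p = 0.0146, adjusted p = 0.502). Without control 1 the estimate was 0.11 (edgeR unadjusted p = 0.0801, adjusted p = 0.637).

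Per2 (ENSRNOG00000020254), the paralog of Per1 and also an inhibitor of CLOCK and ARNTL, had its estimate on the other side of 0. The control pools had 38.9, 39.5 and 40.4 CPM, and the furosemide pools 36.8, 35.9 and 36.9 CPM. The groups did not overlap, with furosemide below control and a gap of 1.97 CPM against a counting error of 1.32 CPM for one value. The means were 39.6 ± 0.751 and 36.6 ± 0.541 CPM (SD, n = 3 each). This gave a log2 fold change of -0.11, standard error 0.05 and a 95% interval of -0.22 to -0.01 (edgeR unadjusted p = 0.0284, adjusted p = 0.551). The pools of a group lay closer together for Per2 than counting error alone would give, with a residual SD of 0.02 against a counting SD of 0.05 on the log2 scale. The intervals of Per1 and Per2 did not overlap, and the difference between the fold changes of these 2 genes was not tested.

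Nr1d1 (ENSRNOG00000009329), the nuclear receptor that closes the second loop of the clock, was at 52.3, 49.1 and 47.0 CPM in controls. After furosemide it was at 58.5, 60.0 and 57.3 CPM. The groups did not overlap, and the gap of 4.90 CPM was wider than the counting error of 1.57 CPM. The control mean was 49.5 ± 2.69 CPM and the furosemide mean 58.6 ± 1.40 CPM (SD, n = 3 each). The estimated log2 fold change was 0.24, with standard error 0.05 and a 95% interval of 0.14 to 0.35, which is a fold change of 1.10 to 1.27. The edgeR unadjusted p was 0.000176 and the adjusted p 0.189, and 14 of the 16344 genes had a smaller p.

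Dbp (ENSRNOG00000021027), the output gene that encodes the D-box binding factor, had the largest difference of the 6 genes. The control pools had 77.6, 60.9 and 64.5 CPM, and the furosemide pools 85.2, 93.0 and 86.5 CPM. The groups did not overlap, with a gap of 7.52 CPM between control 1, which stood above the other controls, and furosemide 1. The control mean was 67.7 ± 8.80 CPM and the furosemide mean 88.2 ± 4.20 CPM (SD, n = 3 each). The estimated log2 fold change was 0.38, with standard error 0.07 and a 95% interval of 0.23 to 0.53, which is a fold change of 1.17 to 1.45. The edgeR unadjusted p was 0.0001 and the adjusted p 0.14, and 7 of the 16344 genes had a smaller p.

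**Figure D2:**
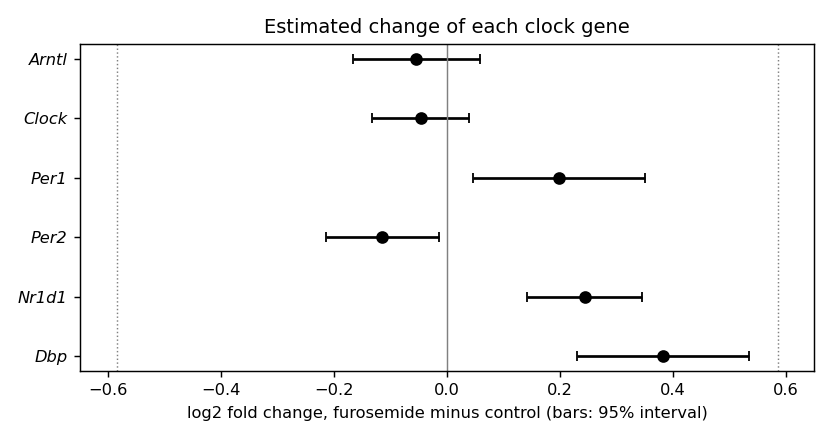
Log2 fold change of each clock gene, furosemide minus control, with its 95% interval, where the dotted lines mark a 1.5-fold difference in either direction. The intervals of Dbp, Nr1d1 and Per1 lie above 0, that of Per2 lies below 0, and those of Arntl and Clock include 0.

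**Figure D3:**
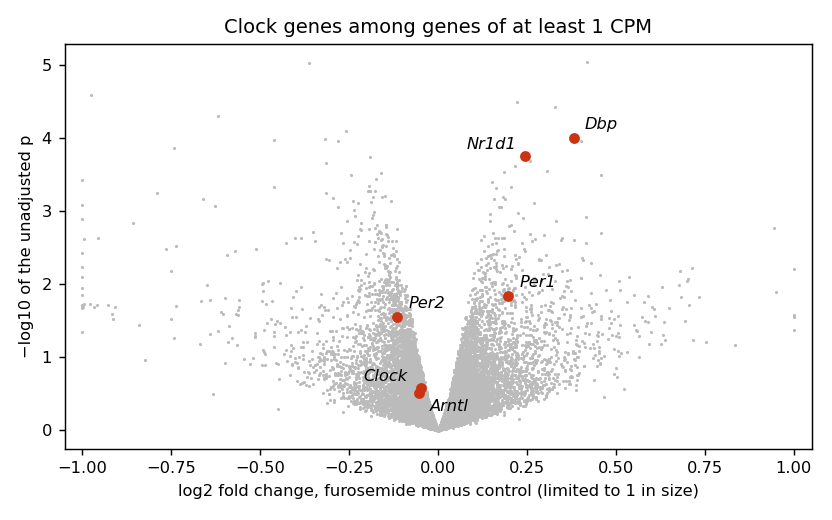
The 6 clock genes (named points) among all tested genes of at least 1 CPM (grey), with the log2 fold change on the horizontal axis, limited to 1 in size, and −log10 of the unadjusted p on the vertical axis. Dbp and Nr1d1 lie near the top, where 7 and 14 of all tested genes had a smaller p.

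Whether Dbp and Nr1d1 count as changed depended on the test. DESeq2 called both, with an adjusted p of 0.000715 for Dbp and 0.0438 for Nr1d1, as did the edgeR exact test (adjusted p = 0.000954 and 0.00887). DESeq2 called 40 of 10957 genes (0.365%) and the exact test 45 of 16344 (0.275%). In limma-voom, which called 0 genes (0%), the adjusted p was 0.182 for Dbp and 0.221 for Nr1d1. The quasi-likelihood test also called both without a low-count filter (adjusted p = 0.00376 and 0.0333) and without control 1 (adjusted p = 0.00131 and 0.0475). Control 1 was the control library with the highest Dbp and Nr1d1, and without it the log2 fold change was 0.49 for Dbp and 0.29 for Nr1d1. Without any one of the other 5 libraries neither gene passed, with estimates of 0.31 to 0.41 for Dbp and 0.21 to 0.26 for Nr1d1. Per1, Per2, Arntl and Clock passed in none of the 14 alternative analyses, and their lowest adjusted p was 0.387, for Per1 without a low-count filter.

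**Figure D4:**
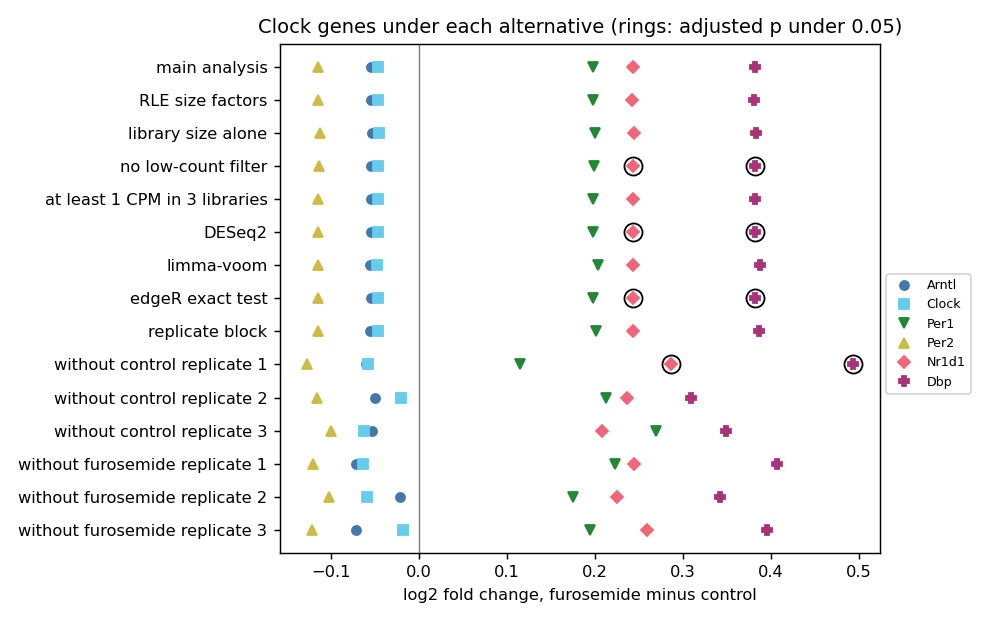
Log2 fold change of the 6 clock genes (horizontal axis) in the quasi-likelihood analysis and in each of the 14 alternatives (rows), with a ring where the adjusted p was under 0.05. Rings appear for Dbp and Nr1d1 in 4 alternatives each, and no gene crosses 0.

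For 5 of the 6 genes the furosemide and control pools held separate ranges, 3 with furosemide higher (Per1, Nr1d1, Dbp) and 2 with furosemide lower (Per2, Arntl). Among all genes tested 13.5% had groups that did not overlap, 6.69% with furosemide higher and 6.82% lower. For Per1 and Arntl the gap between the groups was smaller than the counting error of one value, so for these 2 genes the order of the libraries is not firm. For Per2 the gap was 1.97 CPM, against a counting error of 1.32 CPM for each of the 2 values that bound it.

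The genes differed in how much the pools of a group varied. Dbp had a residual SD of 0.14 on the log2 scale, and 98.4% of the 4331 genes within 2-fold of its level had a lower one. For Per1 the residual SD was 0.12, with 90.9% of 5399 such genes lower. Nr1d1 (0.06) and Clock (0.05) lay near the middle of genes of their level, with 54.6% and 50.5% lower. Arntl (0.04) and Per2 (0.02) varied least, with 18.5% and 3.17% of genes of like level lower. So Dbp had the largest difference between the groups and also the largest spread within them, while Nr1d1 had a spread typical of its level. The p and interval of Dbp rest on a spread drawn towards that of other genes, not on its residual SD alone.

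The pools did not order the genes alike. Control 1 was the highest of the controls for Dbp and Nr1d1 and the lowest for Per1, Per2 and Arntl. Furosemide 2 was the highest of its group for Dbp, Nr1d1 and Per1, and the lowest for Per2 and Arntl. As a description of deviations from the group means over the 6 libraries, Dbp and Nr1d1 deviated in the same direction (r = 0.80). Per2 deviated against Nr1d1 (r = -0.94) and against Dbp (r = -0.73), and together with Arntl (r = 0.69). Per1 deviated against Dbp (r = -0.68) and against Nr1d1 (r = -0.82), although all 3 had estimates above 0 in the comparison of the groups. With Per2 it deviated in the same direction (r = 0.60), although the estimates of Per1 and Per2 lay on opposite sides of 0. The 6 libraries share their scaling across genes, and so few points carry little weight.

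For 10 of the 15 pairs of genes the groups were separate for both genes, so no correlation pooled over the groups is given for these pairs. The other 5 pairs all include Clock. Over the 6 libraries Clock had a Pearson r of -0.34 with Per1 (rho = -0.20), 0.40 with Per2 (rho = -0.14), 0.18 with Arntl (rho = 0.31), -0.58 with Dbp (rho = -0.31) and -0.40 with Nr1d1 (rho = 0.14). The exact permutation test over 720 orders gave p = 0.272 to 0.499 for r and 0.564 to 0.803 for rho. Adjusted over the 15 pairs computed, these were 0.477 to 0.499 and 0.705 to 0.803. Without the 2 libraries farthest from the median of Per1, Per2 or Arntl, or of Clock in its pairs with Dbp and Nr1d1, r was -0.27 with Per1, 0.73 with Per2, 0.32 with Arntl, 0.71 with Dbp and 0.79 with Nr1d1, so the sign for the last 2 rested on the libraries left out.

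Ratios of counts within a library do not depend on the scaling between libraries. The ratio of Per1 to Per2 counts was 0.733, 0.836 and 0.881 in controls and 0.972, 1.06 and 1.01 after furosemide, so all 3 furosemide pools were above all 3 controls. Per2 to Nr1d1 was 0.742, 0.805 and 0.859 in controls and 0.630, 0.598 and 0.645 after furosemide, with no overlap. Arntl to Dbp was 0.442, 0.573 and 0.537 in controls and 0.400, 0.341 and 0.394 after furosemide, again with furosemide lower throughout. Dbp to Nr1d1 overlapped, at 1.48, 1.24 and 1.37 in controls and 1.46, 1.55 and 1.51 after furosemide. Of the 15 ratios among the 6 genes, 9 (Per1 to Per2 and to Arntl, Per2 to Arntl, and Per2, Arntl and Clock each to Dbp and to Nr1d1) did not overlap between the groups. Over all 56759185 pairs of genes averaging 10 CPM or more, 14.7% of such ratios did not overlap. The ratio of Per2 to Arntl was split only narrowly, with 1.134 in control 1 and 1.132 in furosemide 2. Where the genes of a ratio lay on opposite sides of control in every furosemide pool, the ratio had to separate. This holds for Per1 to Per2 and to Arntl, and for Per2 and Arntl each to Dbp and to Nr1d1. These ratios add nothing to the separation of the single genes. The ratios share genes with one another and were computed with the levels known, so they are a description.

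**Figure D5:**
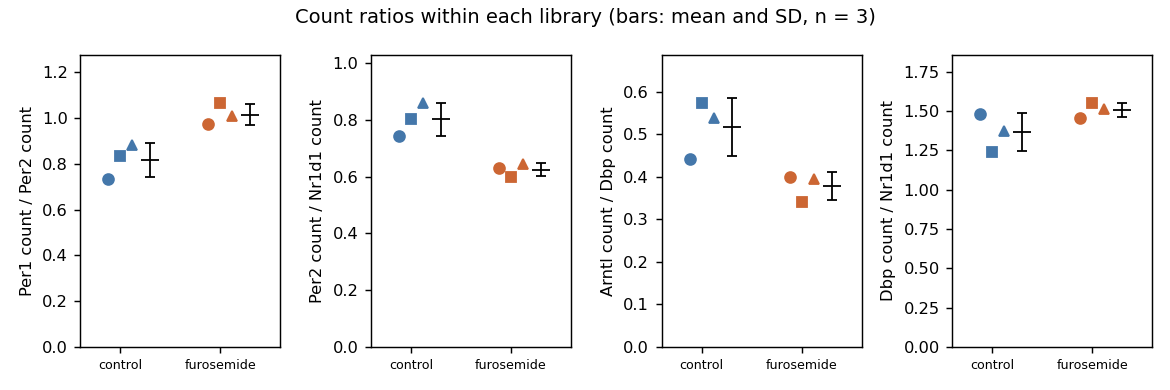
Ratio of counts of one clock gene to another within each library (vertical axis, from 0, no unit), for 4 of the 15 pairs, with markers by replicate number and a bar for the mean and SD. The groups overlap for Dbp to Nr1d1 and are apart for Per1 to Per2, Per2 to Nr1d1 and Arntl to Dbp. These last ratios had to separate, since their genes lay on opposite sides of control in every furosemide pool.

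The gene whose log2 CPM over the 6 libraries was most like that of Dbp, among 10649 other genes averaging 10 CPM or more, was ENSRNOG00000012053 (r = 0.9955). Its control mean was 79.1 ± 5.29 CPM and its furosemide mean 88.9 ± 2.37 CPM (SD, n = 3 each), with an edgeR adjusted p of 0.376. For Nr1d1 it was ENSRNOG00000005041 (r = 0.9988), with means of 75.2 ± 2.26 CPM in control and 82.9 ± 1.37 CPM in furosemide pools (edgeR adjusted p = 0.359). These are the highest values among all genes compared. Dbp and Nr1d1 both had separate groups, so each r over the 6 libraries includes the difference between the groups. An r above 0.9 was found for 137 genes (1.29%) with Dbp and for 135 (1.27%) with Nr1d1.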

How the data were processed

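Total RNA was extracted with QIAzol and an RNeasy kit, and libraries came from an Illumina TruSeq mRNA kit, per the labels' protocols. The deposited values are raw counts of reads for each Ensembl gene identifier. Per the submitters' processing notes, the tools were FastQC, TopHat, HTSeq and edgeR. Their versions, the genome build, the annotation and the use of strand are not given here, so reads of overlapping antisense genes cannot be told apart. Each column name gives the group and replicate number of 1 library. The 6 symbols were paired with identifiers when the genes were chosen. The members, the lists and the ratios were chosen with earlier results of these data known.

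Genes were filtered by filterByExpr (16344 of 32402, with 99.9% of counts), scaled by TMM and tested with edgeR 4.0.16 in R 4.3.3 (glmQLFit and glmQLFTest, treatment group as the only term, two-sided). P-values were adjusted over all genes tested by the Benjamini-Hochberg method at 0.05. The standard error was the log2 fold change divided by the square root of F. The rule for naming took all 6 genes, and for likeness the gene with the highest r for the 2 with the smallest p. Alternatives were RLE factors, library size alone, no filter, 1 CPM in 3 libraries, DESeq2 1.42.0, limma-voom (limma 3.58.1), the edgeR exact test, a replicate block and leaving out each library. On simulated data, the model was checked to recover known fold changes, with a pass condition on the largest of them only. The largest were above any estimate for the clock genes. Smaller fold changes, of the sizes seen here, were also simulated. Their recovery was not part of the pass condition and is not given here. Lists of further clock genes, glucocorticoid-induced and activity-induced genes and of markers, fixed by symbol, could not be matched to identifiers and were not analysed here. Promoter sequences are from RefSeq (GRCr8), and windows were found for all 6 genes, Arntl under the symbol Bmal1.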

Additional observations from a re-analysis of the deposited data

How the results depend on the processing

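All 6 clock genes kept the sign of their log2 fold change in the 14 alternatives, which for 5 of them the separation of the groups made likely. Their side of the adjusted threshold was kept by 76 values and not by 8, all for Dbp and Nr1d1. Without a low-count filter the log2 fold changes of Dbp and Nr1d1 were 0.38 and 0.24, in DESeq2 0.38 and 0.24, and in the edgeR exact test 0.38 and 0.24, each past the threshold. The cause was not tested. Leaving out 1 library gave 0.31 to 0.49 for Dbp, 0.21 to 0.29 for Nr1d1, 0.11 to 0.27 for Per1, -0.13 to -0.10 for Per2, -0.07 to -0.02 for Arntl and -0.06 to -0.02 for Clock. The highest value of Dbp and Nr1d1 and the lowest of Per1 came without control 1.

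Over all genes, the 0 higher and 0 lower calls became 12 and 16 without a low-count filter, 18 and 22 in DESeq2 and 15 and 30 in the exact test, and the cause was not tested. Leaving out 1 library gave 0 to 6 higher and 0 to 11 lower, with 6 and 11 without control 1 and 1 lower without control 3. The fit with a replicate block called 0 genes higher and 1 lower, and in it Dbp had a log2 fold change of 0.39 (edgeR adjusted p = 0.203). The correlation of deviations between same-numbered libraries was -0.13, -0.01 and -0.03 across 10655 genes. Between libraries of different numbers it ran from -0.12 to 0.15. The labels give only a shared number, and these values cannot show whether same-numbered pools were prepared together. The block changed no call among the clock genes. The r of Clock moved with single libraries. It ran from -0.18 (without control 2) to 0.72 (without furosemide 2) with Arntl, from 0.15 (without control 2) to 0.57 (without control 3) with Per2, and from -0.74 (without control 1) to -0.12 (without furosemide 3) with Per1. With Dbp and Nr1d1 it ran from -0.72 to -0.15 and from -0.60 to -0.11, lowest without control 3 and nearest 0 without control 2. Residual SDs moved by less than 0.01 with library size alone. The groups of Arntl and Per1 were apart by less than the counting error of one value, and for Per1 the residual SD was 2.28 times the counting SD. The alternatives for the further gene lists were not run, since those lists could not be matched to identifiers.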
